A study of Mus musculus with 6 samples.

Results

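The replication-dependent histone genes encode the core histones H2A, H2B, H3 and H4 and the linker histone H1 that package newly copied DNA. They were taken as all non-control array probes whose accession maps in RefSeq to a symbol of the series H1f1 to H1f5, H2ac, H2bc, H3c or H4c, which replaced the older Hist1h to Hist4h names. The rule found 47 probes for 43 genes, of 55681 probes and 19988 named genes on the array. By class these were 5 genes for H1, 13 for H2A, 10 for H2B, 8 for H3 and 7 for H4. RefSeq lists 64 genes under these symbols, 54 on chromosome 13 and 10 on chromosome 3, and the array had probes for 34 and 9 of them.

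Both groups came from the dorsal telencephalon of C57BL/6J mouse embryos at embryonic day 14.5 that were heterozygous for a Tis21-GFP knock-in, so the cells of both groups carried the reporter allele. Cells stained with a DNA dye were sorted for a DNA content between 2N and 4N as S-phase cells and split into Tis21-GFP positive cells (3 arrays) and Tis21-GFP negative cells (3 arrays). Each replicate pooled 30 hemispheres of 15 embryos and about 200000 sorted cells, and the authors kept the 3 best of 4 independent experiments, each from at least 3 pregnant mice. GFP from the Tis21 locus marks progenitors that have switched to divisions producing neurons, and the series title concerns a shorter S phase after that switch.

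Replication-dependent histone genes lie in clusters and are transcribed mainly in S phase, when their products are deposited behind the replication fork. Their mRNAs end in a conserved stem-loop bound by the protein SLBP instead of a poly(A) tail, although some of the genes can also give polyadenylated mRNA in cells that leave the cycle. Many members encode the same or nearly the same protein, so probes can pick up the mRNA of a paralog. The labelling kit named in the labels starts cDNA synthesis from poly(A), and how much of the signal came from tailed mRNA, from priming inside the mRNA or from a paralog was not tested. Probe levels are therefore compared between groups for 1 probe at a time and never between genes.

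Values below are log2 intensities with each array's 75th percentile subtracted, called scaled log2 signal. The scanner software put 51.2% to 52.6% of probes well above background on the positive arrays, against 52.7% to 56.2% on the negative arrays. Replicates correlated at 0.983 to 0.992 across genes, and arrays of different groups at 0.954 to 0.972. The cortical markers Emx1, Pax6 and Lhx2 were well above background on all 6 arrays, and of 9 cortical progenitor genes 4 rose and 2 fell in positive cells. By the same test, 12.8% of all tested genes were called higher and 13.1% lower. Eomes, a factor of neurogenic intermediate progenitors, rose by 3.42 ± 0.24 log2 (SE), and Sox2 and Hes5, known from apical progenitors, fell by 0.76 and 0.68 on the log2 scale. Since the experiments were selected, the spread between these pools may understate that between experiments in general.

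Most replication-dependent histone genes had a small positive difference, and few passed the test. How many passed, and whether their share lay above or below that of all genes, depended on the scaling and on single arrays. Fewer also passed when dim probes were not filtered out. Of the 43 genes, 40 had a probe that was well above background throughout 1 group or both, and these were tested. Of these 40, 7 were higher in positive cells at an adjusted p under 0.05 and 0 were lower (limma over 13140 genes, Benjamini-Hochberg). That is 17.5% of the tested histone genes, beside 12.8% of all tested genes called higher and 13.1% called lower. At an unadjusted p under 0.05, 9 histone genes were higher (22.5%, against 23.2% of all tested genes) and 0 lower (against 17.4%). The estimated difference was positive for 36 of the 40 genes (90%), against 60.2% of all tested genes. The median difference was 0.27 log2, against 0.12 for all tested genes, with a range from -0.30 to 0.91. The 3 genes not tested were H1f3 and H2bc8, whose probes were well above background on no array (0 arrays), and H2bc23, well above background on 1 negative array.

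The 7 genes that rose were H3c8, H3c4 and H3c3 (core histone H3), H4c4 and H4c12 (core histone H4), and H1f1 and H1f5 (linker histone H1). No H2A or H2B gene passed (0 of 13 and 0 of 8 tested), while 12.8% of all tested genes were called higher. At an unadjusted p under 0.05, 1 gene of each of those classes was higher. That is 7.69% of the H2A and 12.5% of the H2B genes, against 23.2% of all tested genes. The medians of H2A and H3 were close, 0.27 and 0.26. So were their shares of genes higher without overlap between groups, 38.5% and 37.5%, against 28.1% of all tested genes. With quantile normalization, 2 histone genes were called higher, H3c8 and H2bc22, which is 5% against 8.58% of all genes. The authors' log2 table gave the same 2 genes, against 8.52% of all genes. With the 75th percentile taken over probes well above background on all arrays, or with normexp background, 1 was called, H3c8, which is 2.5% against 7.1% and 9.34% of all genes. Median centring gave 10, or 25% against 17.9%. The share of positive differences was 67.5% to 97.5% of histone genes over these 5 settings, and in each it was above the share of all genes, 44.3% to 72.2%. Of all genes called in either direction, 49.6% were called higher rather than lower with the scaling used here. That share was 65.8% with median centring, 29.1% with that other 75th percentile and 39.6% with quantile normalization. It was 40.2% with normexp background followed by quantile normalization and 39.4% with the authors' log2 table. These settings put the median difference of all genes at 0.30 with median centring, -0.06 with the other 75th percentile and 0.01 to 0.02 with the remaining 3.

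H3c8, formerly Hist1h3g, had scaled log2 signals of 0.87, 1.48 and 1.20 on the positive arrays, against 0.11, 0.46 and 0.23 on the negative arrays. All positive arrays lay above all negative arrays. The difference was 0.91 ± 0.19 (SE, n = 3 per group, limma adjusted p = 0.0102), a 1.88-fold higher signal. It was the one histone gene called higher under all 17 other settings, with differences of 0.73 or more and limma adjusted p from 0.00235 to 0.0493.

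H3c4, formerly Hist1h3d, had 7.30, 7.39 and 7.68 on the positive arrays, against 6.59, 6.86 and 6.93 on the negative arrays. H3c3, formerly Hist1h3c, had 3.59, 3.40 and 3.67 on the positive arrays, against 2.83, 2.92 and 3.03 on the negative arrays. Neither gene showed overlap between the groups. H3c4 rose by 0.66 ± 0.16 and H3c3 by 0.63 ± 0.14 (SE, limma adjusted p = 0.0203 and 0.0129). Without negative replicate 1, neither passed, at 0.56 and 0.58 (limma adjusted p = 0.0832 and 0.0592). H3c4 also did not pass without negative replicate 2, at 0.69 (limma adjusted p = 0.051).

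H4c4, formerly Hist1h4d, had 7.63, 7.73 and 7.83 on the positive arrays, against 7.02, 6.89 and 7.35 on the negative arrays. H4c12, formerly Hist1h4k, had 8.09, 7.93 and 8.21 on the positive arrays, against 7.39, 7.70 and 7.36 on the negative arrays. The groups did not overlap for either gene. H4c4 rose by 0.64 ± 0.16 and H4c12 by 0.59 ± 0.15 (SE, limma adjusted p = 0.0207 and 0.0244). A second H4c12 probe read 5.99, 5.81 and 6.09 on the positive arrays, against 5.32, 5.44 and 5.64 on the negative arrays, also without overlap. Its difference was 0.50 ± 0.16, which did not pass when all probes were tested one by one (limma adjusted p = 0.0665). H4c4 did not pass without negative replicate 1 (0.61) or negative replicate 2 (0.54). H4c12 did not pass without negative replicate 1 (0.55), negative replicate 3 (0.53), positive replicate 1 (0.59) or positive replicate 3 (0.53).

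H1f1, formerly Hist1h1a and encoding the linker histone H1.1, had 2.64, 2.35 and 2.89 on the positive arrays, against 1.60, 2.06 and 2.11 on the negative arrays. H1f5, formerly Hist1h1b, had 5.21, 5.12 and 5.09 on the positive arrays, against 4.55, 4.64 and 4.84 on the negative arrays. In both genes every positive array exceeded every negative array. H1f1 rose by 0.71 ± 0.20 and H1f5 by 0.46 ± 0.14 (SE, limma adjusted p = 0.0337 and 0.0396). H1f5 passed in 0 of the 6 fits that left out 1 array, with differences from 0.40 to 0.55. H1f1 passed in 1 of them, that without positive replicate 2, with a range from 0.55 to 0.85.

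**Figure D1:**
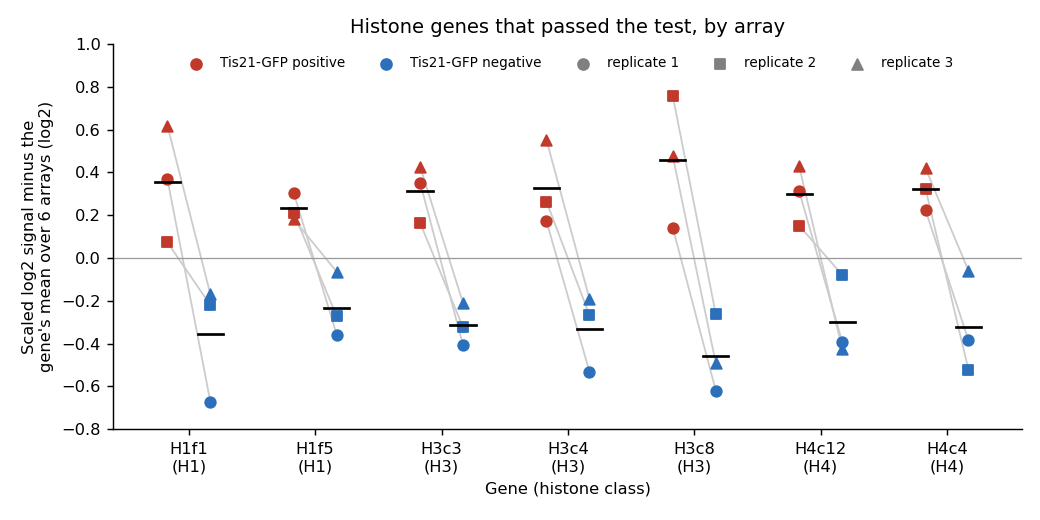
Scaled log2 signal of the 7 histone genes that passed the test, minus each gene's mean over the 6 arrays (vertical axis, log2), for Tis21-GFP positive arrays (red, left) and negative arrays (blue, right). Marker shapes give the replicate number, grey lines join same-numbered arrays and black bars are group means (n = 3). In all 7 genes the positive points lie above the negative ones, and the gap is widest for H3c8 at 0.91 log2.

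The promoters of the 7 genes that rose are shown, because histone promoters carry class-specific elements. With them are those of 2 H2B genes whose groups overlapped, H2bc18 and H2bc14, picked with their values known. Each is the 250 bases before the RefSeq start in GRCm38.p6, read 5′ to 3′ on the gene's strand. Capitals mark 4 motifs searched on both strands, the TATA box TATAAA, the CCAAT box CCAAT, the octamer ATTTGCAT known from H2B promoters, and GGTCCG, the core of an element known from H4 promoters. No printed motif pair shares bases.
H3c8, chr13:23535168-23535417, plus strand: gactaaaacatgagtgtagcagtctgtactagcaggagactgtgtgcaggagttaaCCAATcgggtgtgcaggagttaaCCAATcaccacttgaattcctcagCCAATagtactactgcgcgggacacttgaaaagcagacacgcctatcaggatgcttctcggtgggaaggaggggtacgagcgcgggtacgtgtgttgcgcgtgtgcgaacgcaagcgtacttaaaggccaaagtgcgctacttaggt
H3c4, chr13:23575513-23575762, plus strand: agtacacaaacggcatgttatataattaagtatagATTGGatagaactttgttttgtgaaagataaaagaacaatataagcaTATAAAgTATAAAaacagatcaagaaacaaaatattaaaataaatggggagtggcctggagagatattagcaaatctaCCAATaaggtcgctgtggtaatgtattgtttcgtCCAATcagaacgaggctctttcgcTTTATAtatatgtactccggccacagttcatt
H3c3, chr13:23745522-23745771, minus strand: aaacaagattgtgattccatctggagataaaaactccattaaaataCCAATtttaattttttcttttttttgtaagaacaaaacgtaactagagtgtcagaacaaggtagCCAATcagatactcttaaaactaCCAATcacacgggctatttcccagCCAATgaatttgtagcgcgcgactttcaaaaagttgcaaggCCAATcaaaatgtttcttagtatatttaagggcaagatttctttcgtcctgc
H4c4, chr13:23581318-23581567, plus strand: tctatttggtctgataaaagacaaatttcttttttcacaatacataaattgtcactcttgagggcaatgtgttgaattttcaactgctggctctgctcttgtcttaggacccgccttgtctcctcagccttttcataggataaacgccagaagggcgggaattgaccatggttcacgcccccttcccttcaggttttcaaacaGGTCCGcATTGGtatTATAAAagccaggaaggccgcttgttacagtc
H4c12, chr13:21750554-21750803, minus strand: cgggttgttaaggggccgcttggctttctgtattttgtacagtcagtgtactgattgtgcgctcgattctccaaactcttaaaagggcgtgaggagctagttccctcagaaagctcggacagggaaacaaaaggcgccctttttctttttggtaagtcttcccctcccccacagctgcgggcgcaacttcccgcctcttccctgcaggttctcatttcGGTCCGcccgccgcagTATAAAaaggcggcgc
H1f1, chr13:23763418-23763667, plus strand: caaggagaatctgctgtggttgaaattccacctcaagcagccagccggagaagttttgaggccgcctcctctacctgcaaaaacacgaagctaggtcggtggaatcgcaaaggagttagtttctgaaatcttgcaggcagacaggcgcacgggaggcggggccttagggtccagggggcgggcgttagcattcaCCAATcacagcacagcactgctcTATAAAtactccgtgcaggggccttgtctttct
H1f5, chr13:21780626-21780875, minus strand: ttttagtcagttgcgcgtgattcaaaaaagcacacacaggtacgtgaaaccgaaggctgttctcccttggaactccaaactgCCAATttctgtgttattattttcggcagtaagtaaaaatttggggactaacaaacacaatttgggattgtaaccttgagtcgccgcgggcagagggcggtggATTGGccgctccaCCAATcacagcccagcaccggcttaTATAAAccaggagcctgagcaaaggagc
H2bc18, chr3:96269450-96269699, plus strand: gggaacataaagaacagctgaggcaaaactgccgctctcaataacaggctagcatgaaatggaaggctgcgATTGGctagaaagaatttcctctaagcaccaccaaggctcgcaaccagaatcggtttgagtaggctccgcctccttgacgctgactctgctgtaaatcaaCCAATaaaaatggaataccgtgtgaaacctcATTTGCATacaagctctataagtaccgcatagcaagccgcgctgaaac
H2bc14, chr13:21721794-21722043, plus strand: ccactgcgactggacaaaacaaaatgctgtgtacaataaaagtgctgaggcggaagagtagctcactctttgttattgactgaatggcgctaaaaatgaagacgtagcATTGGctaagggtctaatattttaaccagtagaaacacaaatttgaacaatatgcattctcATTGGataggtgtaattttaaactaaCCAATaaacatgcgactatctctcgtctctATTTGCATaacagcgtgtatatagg

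The octamer and GGTCCG were each found mainly in some histone classes, TATAAA was found in all 5, and each motif found in a gene that passed was also found in genes that did not. Promoters were at hand for 38 of the 43 genes. GGTCCG was found in 5 of 6 H4 genes, among them H4c4, where it starts 47 bases before the start, and H4c12, where it starts 32 bases before it. It was also found in H4c3, H4c9 and H4c11 and in the H3 gene H3c11, which were not called. Of all 32851 mouse promoters of that length, 6.72% held it. The octamer was found in 6 of 8 H2B and 6 of 13 H2A genes, against 1.6% of all promoters, and in 0 of 6 H3, 0 of 6 H4 and 0 of 5 H1 genes. A CCAAT box was found in all 13 H2A, all 8 H2B and all 5 H1 genes in 4 of 6 H3 genes and in 2 of 6 H4 genes, against 33.8% of all promoters. Among the printed windows H3c3 held 5 CCAAT boxes, and H3c8, H3c4, H1f5 and the uncalled H2bc14 held 3 each. TATAAA was found in 20 of the 38 genes (4 of 5 H1, 7 of 13 H2A, 4 of 8 H2B, 2 of 6 H3 and 3 of 6 H4), against 12.4% of all promoters, and in the printed windows it was in H3c4, H4c4, H4c12, H1f1 and H1f5.

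The 3 H3 genes that rose stood above 5 others that did not pass. H3c14 had 4.36, 3.95 and 4.70 on the positive arrays, against 3.97, 4.05 and 4.27 on the negative arrays, and the groups overlapped. Its difference was 0.24 ± 0.20 (SE, limma adjusted p = 0.405). H3c15 had -1.84, -2.29 and -2.02 on the positive arrays, against -2.31, -2.33 and -2.18 on the negative arrays, with a difference of 0.22 ± 0.15 (limma adjusted p = 0.302). The values of H3c15 overlapped between the groups. The widest spread among H3 genes was that of H3c7, with 1.63, 0.59 and 2.08 on the positive arrays, against 0.93, 1.12 and 1.39 on the negative arrays. Positive replicate 2 lay below all 3 negative arrays there, and the other 2 positive arrays lay above them. H3c7 was chosen after its values were seen. The median difference over the 8 H3 genes was 0.26, but 0.56 without positive replicate 2, 0.13 without positive replicate 3 and 0.0889 with the other 75th percentile.

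Among H4 genes that did not pass, H4c3 had 3.47, 3.34 and 3.80 on the positive arrays, against 3.06, 3.26 and 3.37 on the negative arrays, and the groups overlapped narrowly. Its difference was 0.31 ± 0.17 (SE, limma adjusted p = 0.195). H4c11 had 4.12, 4.02 and 4.26 on the positive arrays, against 3.85, 3.89 and 3.86 on the negative arrays. The groups did not overlap, and the difference of 0.26 ± 0.13 did not pass (limma adjusted p = 0.16). The 2 probes of H4c9, chosen after their values were seen, disagreed. The probe used in the fit over genes gave 0.13 ± 0.16 (limma adjusted p = 0.574), and the other gave 0.54 ± 0.15 and passed when all probes were tested one by one (limma adjusted p = 0.0453). The median difference over the 7 H4 genes was 0.29, and H4c8 had the one negative difference at -0.16.

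The other tested linker histone genes, H1f4 and H1f2, did not pass. H1f4 had 6.29, 5.71 and 6.40 on the positive arrays, against 5.63, 6.07 and 5.73 on the negative arrays, with a difference of 0.32 ± 0.21 (SE, limma adjusted p = 0.289). Positive replicate 2 lay within the negative range. H1f2 had 0.01, -0.02 and -0.74 on the positive arrays, against -0.03, -0.05 and -0.36 on the negative arrays, and its groups overlapped. Its difference was -0.11 ± 0.22 (limma adjusted p = 0.743). The median over the 4 tested H1 genes was 0.39.

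All 13 tested H2A genes had a positive difference, and none passed (0 genes), with a median of 0.27. H2ac12, formerly Hist1h2ah, had 9.02, 9.19 and 9.63 on the positive arrays, against 8.70, 8.82 and 8.81 on the negative arrays. The groups did not overlap, and the difference was 0.50 ± 0.18 (SE, limma adjusted p = 0.0697). It passed with median centring at 0.69, and a robust fit with a variance trend also called it, at 0.50. H2ac15 had 8.91, 8.87 and 9.16 on the positive arrays, against 8.56, 8.67 and 8.77 on the negative arrays, also without overlap, with a difference of 0.31 ± 0.14 (limma adjusted p = 0.134). Its second probe gave 0.21 ± 0.15 with overlap. H2ac8 had the highest H2A estimate, 0.80 ± 0.36, but its probe was well above background on all 3 positive arrays and on 1 of the 3 negative arrays. No histone spot, and no non-control spot at all, was saturated on any array (0 spots).

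The median over the 8 tested H2B genes was 0.02, below the other class medians and the 0.12 of all tested genes with this scaling. With quantile normalization, the authors' log2 table and normexp it was 0.10, 0.10 and 0.031, above the median of all genes (0.0216, 0.0203 and 0.0136) and above that of H4 genes (0.0137, 0.0109 and 0.0010). The difference between classes was not tested. H2bc1, a gene known for its product in testis, had 4.44, 4.34 and 4.61 on the positive arrays, against 3.90, 4.13 and 4.20 on the negative arrays. Its groups did not overlap, and the difference was 0.38 ± 0.14 (SE, limma adjusted p = 0.0862). H2bc22 had -2.66, -2.94 and -2.43 on the positive arrays, against -3.10, -3.07 and -2.75 on the negative arrays, with overlap and a difference of 0.30 ± 0.18 (limma adjusted p = 0.237). H2bc4, formerly Hist1h2bc, was chosen after its values were seen as the only tested member lower in all 3 same-numbered pairs. It had 2.24, 2.67 and 2.44 on the positive arrays, against 2.59, 3.06 and 2.60 on the negative arrays, which overlapped. Its difference was -0.30 ± 0.18 (limma adjusted p = 0.249).

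**Figure D2:**
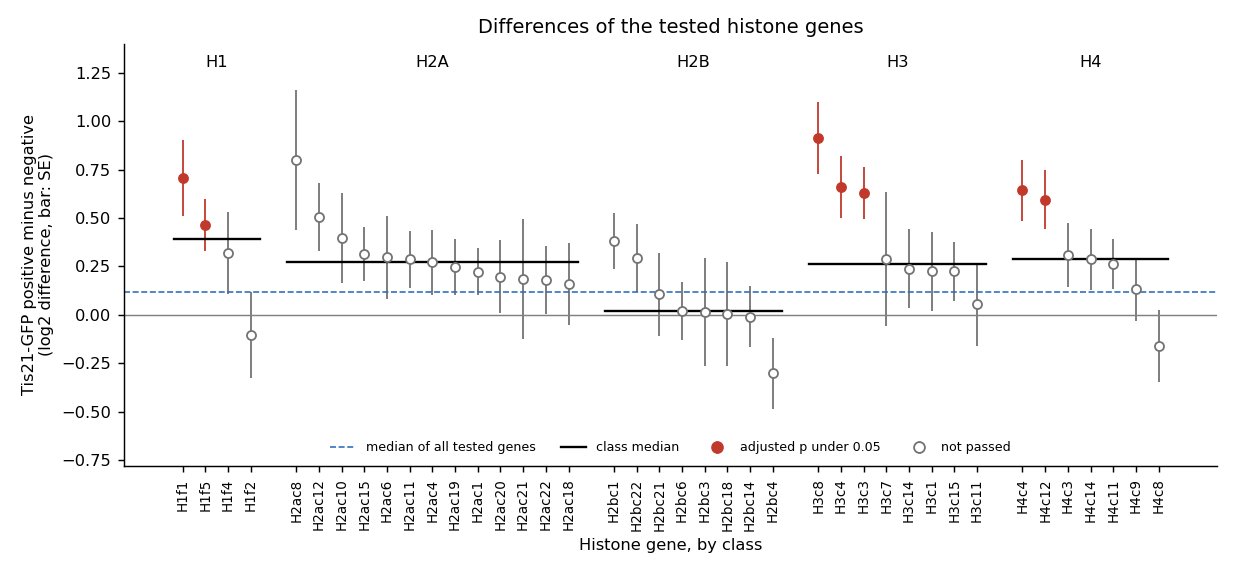
Difference between Tis21-GFP positive and negative arrays (vertical axis, log2, positive minus negative, bars: SE) for the 40 tested histone genes, grouped by class. Filled red points passed at an adjusted p under 0.05, black lines are class medians and the dashed line is the median of all tested genes. Red points are found among H1, H3 and H4 genes, and the class median of H2B, 0.02, lies below the dashed line at 0.12 with this scaling, but above the median of all genes with quantile normalization, the authors' log2 table and normexp.

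Arrays with the same replicate number resembled each other across genes, so each pair was also read on its own. Of the 40 genes, 20 (50%) were higher on the positive array in all 3 pairs, against 40.3% of all tested genes, and 1 was lower in all 3, against 25.0% of all tested genes. The positive arrays did not overlap the negative ones for 14 histone genes (35%), all of them higher, against 28.1% of all tested genes higher and 18.6% lower without overlap. The pairs differed from each other. The median histone difference was 0.37 in replicate 1, 0.09 in replicate 2 and 0.40 in replicate 3, while the median over all tested genes was 0.14, 0.10 and 0.08. In replicate 2, the H2B median was -0.19 and the H3 median -0.03. With the replicate number as a block, the same 7 genes were called and 0 were lower, against 15.4% of all tested genes called higher and 15.0% lower.

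The histone genes also moved together between arrays of one group. Of the 40 tested genes, 29 had their highest value on positive replicate 3, the highest array for 15.5% of all tested genes. The lowest value fell on negative replicate 1 for 22 of the 40, against 24.2% of all tested genes. Positive replicate 3 was also the array with the lowest 75th percentile of intensity, 213 intensity units against 284 to 341 on the other 5 arrays, and the part of this in the histone values was not tested. Without positive replicate 3 the median histone difference was 0.18 with 4 genes called higher, and without negative replicate 1 it was 0.21 with 1 called.

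**Figure D3:**
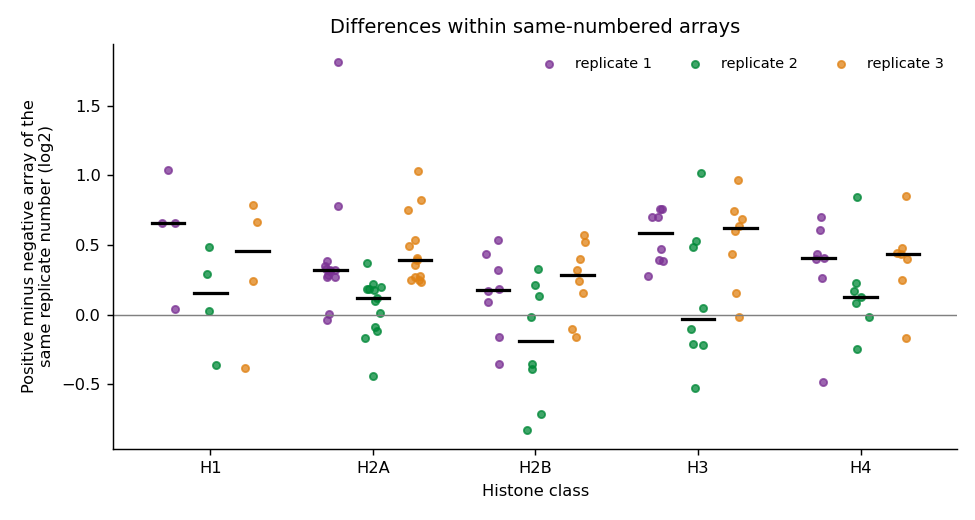
Difference between the Tis21-GFP positive and the negative array of the same replicate number (vertical axis, log2, positive minus negative) for each tested histone gene, by class (horizontal axis) and replicate (colour). Black bars are medians, which in H3 genes were 0.59 in replicate 1, -0.03 in replicate 2 and 0.62 in replicate 3.

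By position, all 7 genes that rose were among the 31 tested genes on chromosome 13. On chromosome 3, 0 of the 9 tested genes passed, also at an unadjusted p under 0.05 (0 genes). Of all tested genes, 12.8% were called higher, and 23.2% were higher at an unadjusted p under 0.05. All 9 differences on chromosome 3 were positive, from 0.004 to 0.29, with a median of 0.20, against a median of 0.30 on chromosome 13. Whether the chromosomes differ was not tested. In RefSeq order H3c4 and H4c4 are next to each other among genes of the rule, and the other 5 genes that rose have no neighbour among the 7. H3c8 lies between the H2A gene H2ac10, at 0.40 ± 0.23, and H2bc9, which has no probe here.

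Histone variants outside the rule, most of whose genes give polyadenylated mRNA through the cell cycle, were measured on the same arrays. For them and the gene lists below, only the scaling used here was examined, with and without the replicate block. How far their counts and medians depend on the scaling was not tested. Of 11 variant genes, 6 rose (54.5%, against 12.8% of all tested genes) and 0 fell (against 13.1%). Their median difference was 0.56, against 0.12 for all tested genes. At an unadjusted p under 0.05, 8 were higher (72.7%, against 23.2% of all tested genes) and 0 lower (against 17.4%). With the replicate block 8 were called higher, while 15.4% of all tested genes were. The added genes were Cenpa, the centromeric H3 variant (0.47, limma adjusted p = 0.0312 with the block and 0.112 without it), and Macroh2a1 (0.57, limma adjusted p = 0.0395 with the block and 0.0783 without it). H3f3b, which encodes the replacement histone H3.3, had 7.09, 7.28 and 7.15 on the positive arrays, against 6.27, 6.37 and 6.32 on the negative arrays, and rose by 0.85 ± 0.13 (SE, limma adjusted p = 0.00227). H3f3a, which encodes the same protein, rose by 0.47 ± 0.12 (limma adjusted p = 0.0254). H1f0, the linker histone linked with cells that leave the cycle, had 1.27, 1.66 and 0.80 on the positive arrays, against 0.27, -0.0001 and -0.15 on the negative arrays, and rose by 1.20 ± 0.23 (limma adjusted p = 0.00747). H2aj, Macroh2a2 and H1f10 also rose, by 0.62, 0.60 and 0.56. The positive and negative arrays did not overlap for any of these 6 genes. H2az1, an H2A variant of promoters, had a difference of 0.19 ± 0.15 (limma adjusted p = 0.358) and H2ax, the variant phosphorylated at DNA breaks, one of 0.32 ± 0.16 (limma adjusted p = 0.181), and neither passed.

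Genes that handle histone mRNA mostly had positive differences, with exceptions. Of 22 genes for 3′ end processing, export and decay, 5 rose (22.7%, against 12.8% of all tested genes) and 1 fell (against 13.1%), with a median of 0.33. The difference was positive for 18 of the 22 (81.8%, against 60.2% of all tested genes). At an unadjusted p under 0.05, 9 were higher (40.9%, against 23.2% of all tested genes) and 2 lower (against 17.4%). Slbp, whose product binds the histone stem-loop, had 2.40, 2.32 and 2.22 on the positive arrays, against 1.67, 1.56 and 1.55 on the negative arrays, and rose by 0.72 ± 0.13 (SE, limma adjusted p = 0.00521). Snrpg and Snrpe, Sm proteins shared by the U7 and the spliceosomal particles, rose by 0.63 and 0.52. Casp8ap2, which encodes the processing factor FLASH, rose by 0.49 ± 0.15, and Eri1, an exonuclease that trims the stem-loop, by 0.51 ± 0.15. Casp8ap2 did not pass with the replicate block (limma adjusted p = 0.0585). Lsm11, a subunit particular to the U7 particle, had -1.81, -1.95 and -1.70 on the positive arrays, against -1.49, -1.03 and -1.05 on the negative arrays, and fell by 0.63 on the log2 scale (limma adjusted p = 0.0278). The groups of Slbp and Lsm11 did not overlap, in opposite directions. Lsm10 of the same list, chosen after its values were seen, had a positive difference of 0.31 ± 0.14, opposite to Lsm11. Its groups did not overlap, and it did not pass (limma adjusted p = 0.129). With the replicate block, Mif4gd, whose product joins SLBP to translation, was called lower too, at -0.49.

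Of 9 tested genes for transcription of histone genes, 3 rose (33.3%) and 0 fell, with a median of 0.41. Among all tested genes, 12.8% were called higher and 13.1% lower. At an unadjusted p under 0.05, 5 of the 9 were higher (55.6%) and 0 lower, against 23.2% and 17.4% of all tested genes. E2f1 rose by 1.48 ± 0.14 (SE, limma adjusted p = 0.000383), Ccne1, the cyclin whose kinase activates the histone gene activator NPAT, by 1.14 ± 0.15, and Nfya, a subunit of the CCAAT-binding factor, by 0.83 ± 0.21. Pou2f1, an octamer-binding factor, had a difference of -0.26 ± 0.29 (limma adjusted p = 0.525). Npat and Ccne2 were not well above background on all arrays of either group and were not tested. Of 17 histone chaperone genes, 6 rose (35.3%) and 0 fell (median 0.35). Of 6 MCM helicase genes, 5 rose (83.3%) and 0 fell (median 0.62). At an unadjusted p under 0.05, 9 chaperone genes (52.9%) and 5 MCM genes (83.3%) were higher, and 0 of either were lower. The replicate block, with 15.4% of all tested genes called higher, added the chaperone Asf1a (0.42, limma adjusted p = 0.0493 with the block and 0.062 without it). The chaperone genes that rose were Asf1b (1.06), Chaf1b (0.99), Rbbp4 (0.74), Nasp (0.67), Chaf1a (0.57) and Tonsl (0.54). Asf1b and Nasp bind histones H3 and H4 on their way to DNA, and Chaf1a, Chaf1b and Rbbp4 encode the subunits of the assembly factor CAF-1. The MCM genes that rose were Mcm2 (1.11), Mcm6 (0.71), Mcm5 (0.65), Mcm4 (0.60) and Mcm7 (0.47), and Mcm3 did not pass at 0.21. These counts stand beside 7 of 40 for replication-dependent histone genes, and no difference between the lists was tested.

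**Figure D4:**
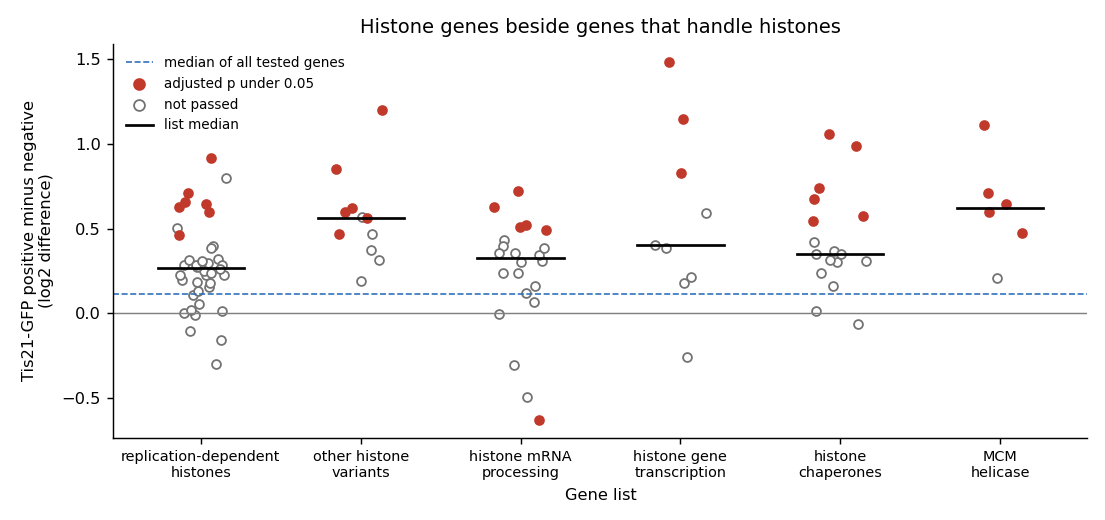
Difference between Tis21-GFP positive and negative arrays (vertical axis, log2, positive minus negative) for each tested gene of 6 lists. Filled red points passed at an adjusted p under 0.05, black bars are list medians and the dashed line is the median of all tested genes. With this scaling, the median of the replication-dependent histones, 0.27, lies below those of the other histone variants, 0.56, and the MCM helicase, 0.62. The other lists were not examined under other scalings.

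Markers of other cell types moved with the groups. All 10 microglia and macrophage genes tested fell in positive cells (median -2.39), as did all 7 mesenchymal genes tested (median -3.50) and 5 of 7 endothelial and pericyte genes. Of all tested genes, 13.1% were called lower and 12.8% higher. Some genes of these lists were kept only because their probes were well above background on all negative arrays. Their falls partly follow from that filter. The summed linear level of the 10 microglial genes, in units of each array's 75th percentile and so weighted to the brightest probes, ran from 4.30 to 7.85 on the positive arrays, against 14.4 to 18.8 on the negative arrays, and 8 were well above background on all 3 positive arrays, against 10 on all 3 negative arrays. For 8 mesenchymal genes it was 0.50 to 0.78 against 3.52 to 7.48, and 2 of the 8 were well above background on all 3 positive arrays, against 7 on all 3 negative arrays. For 9 endothelial and pericyte genes it was 9.54 to 10.5 on the positive arrays, against 8.19 to 9.43 on the negative arrays. Most of that sum was the Kdr probe, and without it the sum was 0.37 to 0.58 on the positive arrays, against 1.55 to 2.26 on the negative arrays. Of the 9 endothelial and pericyte genes, 4 were well above background on all 3 positive arrays, against 7 on all 3 negative arrays. Of 10 neuronal genes, 3 rose and 5 fell, and their summed level was 133 to 154 on the positive arrays, against 103 to 135 on the negative arrays, and 94.4 to 104 against 82.0 to 106 without Tubb3, the brightest. Of 6 erythroid genes tested, 0 rose and 1 fell, with summed levels of 10.5 to 27.5 over 8 genes on the positive arrays, against 16.2 to 27.8 on the negative arrays. Of 6 ventral telencephalic and interneuron genes tested, 0 rose and 1 fell, with sums of 5.98 to 7.77 over 7 genes, against 6.85 to 11.6. The part of these cells in the histone differences was not tested, and fewer cells of a type and less RNA per cell cannot be told apart.

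**Figure D5:**
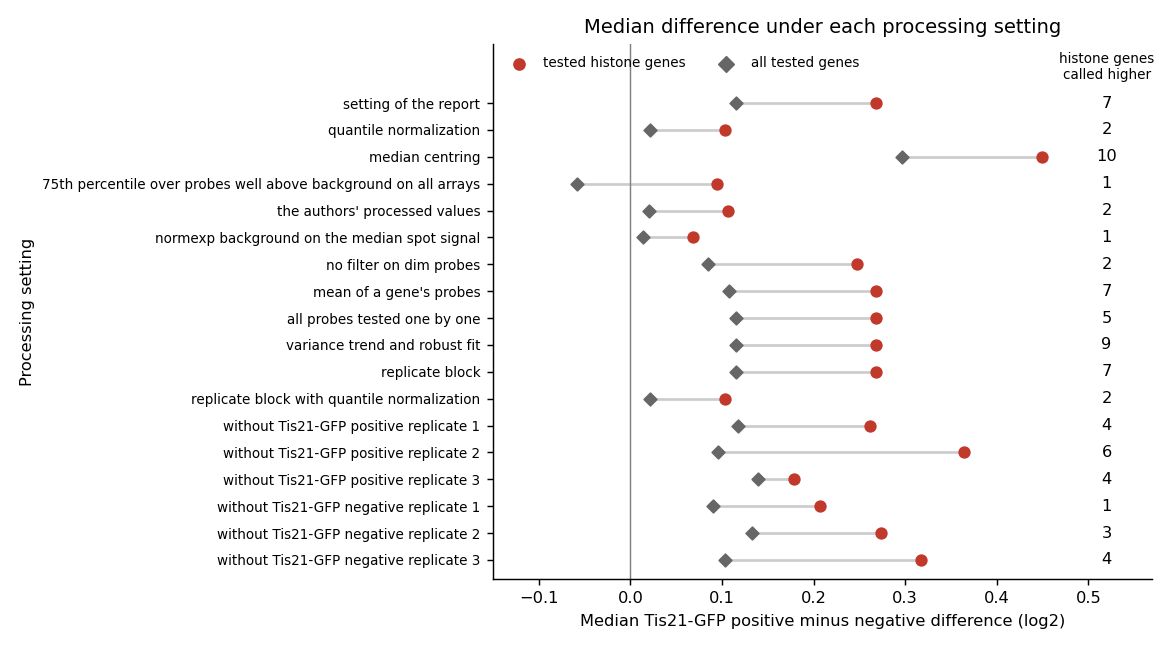
Median difference between Tis21-GFP positive and negative arrays (horizontal axis, log2, positive minus negative) of the tested histone genes (red circles) and of all tested genes (grey diamonds) under each processing setting (vertical axis), with the number of histone genes called higher at the right. The histone median lies to the right of the median of all genes under each setting, from 0.04 above it without positive replicate 3 to 0.27 above it without positive replicate 2.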

How the data were processed

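Total RNA (50 ng per sample, labelled with Cy3) was hybridised to 1-colour Agilent arrays, per the labels. The deposited scanner files hold intensity values from Agilent Feature Extraction, version 10.7.1.1 per the submitters' processing notes, unscaled between arrays. The authors' deposited table holds log2 values, and no source used here describes its normalization. Each column tracked the log2 intensities of its own array (correlation of 0.9995 or more) with a median of 4.67, so direction and scale follow the scanner values. RefSeq (GRCm38.p6) named 26370 of 55681 probes.

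Control spots and 118 to 191 outlier spots per array were left out, spots of a probe were averaged as log2 processed intensity, and the 75th percentile over probes was subtracted. No pair of arrays held identical values (0 pairs). A probe was kept if it was well above background throughout 1 group or both, and the kept probe with the highest mean stood for its gene. A linear model in limma (version 3.58.1, R 4.3.3) had group as its only term, and p-values were adjusted over 13140 genes at 0.05. The fit was tested on simulated data with added differences larger than those of the histone genes here and with no shift between arrays. Smaller differences and the choice of scaling were not covered by that test. All arrays came from 1 slide and 1 scan, so neither could serve as a block, and the number of arrays limits the precision. Deviations from the group means had correlations of 0.23, 0.13 and 0.37 in same-numbered pairs of arrays, against 0.06 or less in other pairs, so the replicate numbers were taken to pair the arrays. Normexp (offset 50) was planned on the mean spot signal. Only the median spot signal was at hand and was used instead, followed by quantile normalization.

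The members and lists were chosen with earlier results of these data known. Array values were given for each called member and, per class, for the 2 uncalled members well above background on all arrays with the largest moderated statistic. From other lists, up to 6 called genes and 8 genes of interest were named. Members outside that rule are marked as picked once their values were known, with exceptions. These were named for a count, a dim probe, a position, a class extreme or a call with the replicate block. Pou2f1, Mcm3 and individual cell type markers were also named outside it.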

Additional observations from a re-analysis of the deposited data

How the results depend on the processing

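How many histone genes were called depended on the scaling, on the filter for dim probes and on single arrays. With the 75th percentile over all probes, 7 were higher and 0 lower. The number higher was 2 with quantile normalization, 2 with the authors' log2 table, 1 with the 75th percentile over probes well above background on all arrays, 1 with normexp background, 2 with no filter on dim probes and 10 with median centring, and the number lower was 0 in each. As a share of tested histone genes these were below the share of all genes called higher with quantile normalization (5% against 8.58%), the authors' log2 table (5% against 8.52%), the other 75th percentile (2.5% against 7.1%) and normexp (2.5% against 9.34%). The histone share was above it with median centring (25% against 17.9%) and close to it with no filter (4.65% against 4.48%). A replicate block with quantile normalization, added after seeing the data, gave 2 higher and 1 lower, H2bc4. Without 1 array the number higher ran from 1 to 6: 1 without negative replicate 1, 3 without negative replicate 2, 4 without negative replicate 3, positive replicate 1 or positive replicate 3, and 6 without positive replicate 2. The histone share was below that of all genes without negative replicate 1 (2.5% against 5.71%), negative replicate 2 (7.5% against 9.1%) and positive replicate 3 (10% against 13.1%). It was above that of all genes without positive replicate 1 (10% against 8.01%), positive replicate 2 (15% against 9.48%) and negative replicate 3 (10% against 5.87%). The replicate block alone, which pairs the arrays, gave 7 higher and 0 lower and changed no histone call. The median over all histone genes was positive in every setting run, at 0.0682 with normexp, 0.10 with quantile normalization, 0.11 with the authors' log2 table, 0.0942 with the other 75th percentile, 0.45 with median centring and from 0.18 to 0.36 without 1 array. Relative to the median of all genes, a comparison added after seeing the data, it was 0.15.

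The H1 median was 0.11 with quantile normalization, with or without the replicate block, 0.57 with median centring, 0.22 with the other 75th percentile, 0.10 with the authors' log2 table and 0.12 with normexp. The H4 median was 0.0137 with quantile normalization, with or without the block, 0.0109 with the authors' log2 table and 0.0010 with normexp, where the H2A median was 0.0684. The H2B median was -0.16 with the other 75th percentile, 0.10 with quantile normalization and with the authors' log2 table and 0.20 with median centring, and ran from -0.0758 to 0.21 without 1 array, being below 0 without positive replicate 1 (-0.0156), positive replicate 3 or negative replicate 3 (-0.0036). H3c14 stood at -0.0187 with quantile normalization, with or without the block, and at -0.0211 with the authors' log2 table. H1f2 stood at 0.0745 with median centring and ran from -0.24 to 0.14 without 1 array. With normexp, H1f4, H2ac15 and H4c11 stood at -0.0304, -0.0246 and -0.0436. Of all genes, 1687 were called higher, against 933 with the other 75th percentile, 896 with no filter and 761 to 1732 without 1 array. The causes were not tested.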
